A study of Arabidopsis thaliana with 8 samples.

Results

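The effect of adding a hy5 mutation to gbf1 mutant seedlings of Arabidopsis thaliana was measured by setting the 2 gbf1 hy5 arrays against the 2 gbf1 arrays. These are 4 of the 8 arrays of the series, chosen by the genotype in their titles, and all 22746 probe sets other than the 64 Affymetrix control probe sets were tested. The 4 groups, with 2 biological replicates each, were the gbf1 hy5 double mutant, the gbf1 hyh double mutant, the gbf1 mutant and wild type. Every array held RNA of whole seedlings harvested at 4 days of age, raised at 22 °C on sucrose-containing medium under white light that was never switched off, after 4 days in the cold at 4 °C. Both genotypes of the comparison carried the gbf1 mutation, wild type carried none of the mutations, and the Col-0 ecotype was stated for wild type alone. The sources used here give neither the alleles nor the ecotypes of the mutants, so a difference in genetic background between the gbf1 hy5 and gbf1 lines cannot be told apart from the loss of HY5.

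HY5 is a bZIP transcription factor that binds G-box and related promoter elements and promotes light-dependent seedling development, including greening, pigment synthesis and restraint of stem elongation. HYH is its closest relative and acts partly in parallel with it, and HY5 is known to promote HYH transcription. GBF1, a G-box binding bZIP protein, can pair with HY5 and with HYH, and it acts both for and against light responses depending on the trait. The comparison asks what further loss of HY5 changes once GBF1 is already missing.

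Array values are given on the log2 scale, with 0 at the probe set's median over the 8 arrays, and differences are between the means of genotypes, with the standard error (SE) that limma gave. A probe set was called where the Benjamini-Hochberg adjusted p over all 22746 probe sets was under 0.05. Because every probe set was centred, the values hold no expression level, and whether seedling marker genes were expressed at all could not be read from them. The probe table names no probe set for HY5 or for GBF1, so the loss of neither could be checked on these arrays. The hybridisation spike-in controls were high on gbf1 hyh replicate 2, at a mean of 1.499, and on gbf1 replicate 2, at 1.79, while the remaining 6 arrays had -0.52 to 0.27. Replicate differences had an SD of 0.239 for gbf1 hy5, against 0.366 for gbf1. On the first principal component, which held 30.4% of the variance, both gbf1 hy5 arrays lay at 31.6 and 31.3, against -19.4 and -36.1 for the gbf1 arrays.

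Loss of HY5 in gbf1 seedlings went with changes in 1012 of 22746 probe sets (4.45%), of which 546 were higher (2.4%) and 466 were lower (2.05%) in gbf1 hy5 than in gbf1. The falls reached further than the rises: 55 falls and 32 rises were 4-fold or more, and 12 falls and 5 rises were 8-fold or more. The median size was 1.1 among the called falls and 0.95 among the called rises on the log2 scale. The most strongly lowered named genes were the lectin gene JAL33, the HY5 relative HYH and the antenna gene LHCB4.2, and the most strongly raised were the glutathione transferase gene GSTU20, the glucosinolate gene BCAT4 and the clock-related gene COR27. Before adjustment 3905 probe sets had a p under 0.05, and the median difference of all probe sets was 0.012. The count fell to 280 without gbf1 hy5 replicate 1, to 241 without gbf1 hy5 replicate 2, to 611 without gbf1 replicate 2 and to 640 without either wild type array, and after quantile normalization more probe sets were lower (463) than higher (402).

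**Figure D1:**
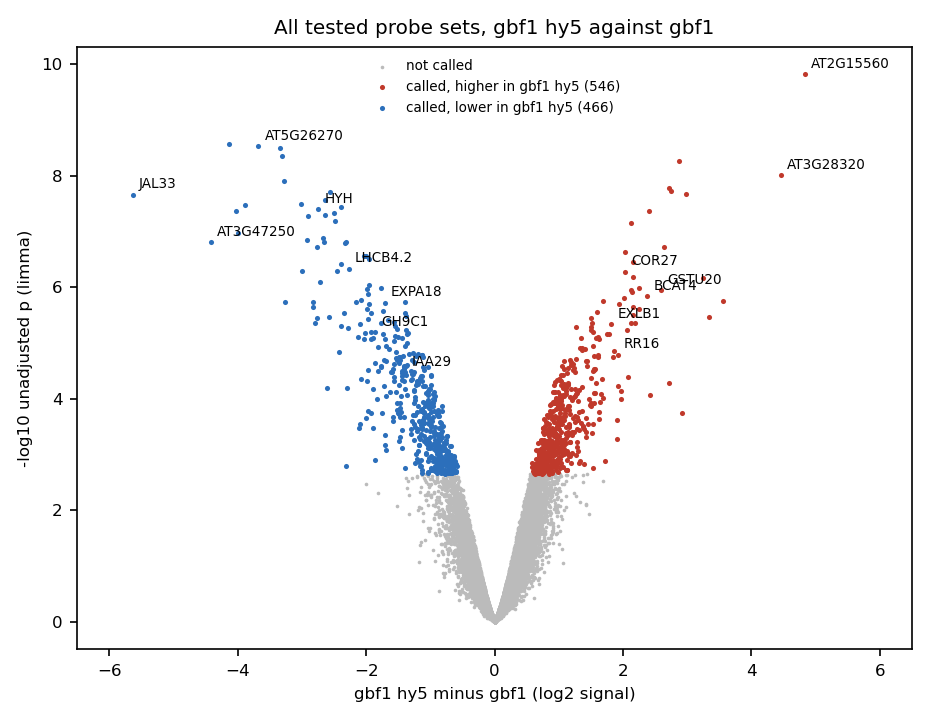
Log2 difference of gbf1 hy5 minus gbf1 (horizontal axis) against -log10 of the unadjusted limma p (vertical axis) for all 22746 probe sets, with the 546 called rises in red, the 466 called falls in blue and the rest in grey. The falls reach to -5.64 for JAL33 and the rises to 4.84 for AT2G15560.

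Wild type lay between the mutants for most called probe sets. The wild type mean was between the gbf1 and gbf1 hy5 means for 431 of the 546 rises and 367 of the 466 falls. It lay beyond gbf1 hy5 for 26 rises and 28 falls, and beyond gbf1 for 89 rises and 71 falls. It was nearer to gbf1 hy5 than to gbf1 for 180 rises and 128 falls, while over all tested probe sets this held for 49.6%. These counts describe probe sets chosen on the same contrast and carry no test. Rises and falls named below are against gbf1 unless another genotype is named, and some of these genes read close to wild type in gbf1 hy5.

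The gene lists below hold only probe sets tied to 1 gene, of which 3.55% were called, while the 4.45% beside them is over all probe sets. Among light signalling genes, 1 of 3 measured members fell (33.3% called, against 4.45% of all probe sets), and it was HYH (AT3G17609), a chromosome 3 gene. HYH had -1.01 and -0.85 in gbf1 hy5, against 1.69 and 1.94 in gbf1. The gbf1 hyh arrays, where the gene itself is mutated, read -2.03 and -1.78, and wild type read 1.08 and 0.85. Both gbf1 hy5 arrays thus lay below both gbf1 arrays and above both gbf1 hyh arrays. HYH fell by 2.75 (SE 0.166, adjusted p = 4.95e-05), a 6.72-fold lower signal, and remained 0.97 above gbf1 hyh (adjusted p = 0.0166). Loss of HY5 and a lower HYH signal therefore came together in gbf1 hy5 and cannot be told apart here. The far-red signalling gene FHL differed by -0.29 (adjusted p = 0.322).

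Further light- and clock-related genes with a symbol were examined after their values had been seen. COR27, a cold- and clock-regulated gene, had 0.79 and 0.82 in gbf1 hy5, against -1.11 and -1.34 in gbf1, 0.42 and 0.53 in gbf1 hyh and -0.76 and -0.42 in wild type. It rose by 2.03 (SE 0.164, adjusted p = 0.000273), and all 4 double mutant arrays lay above the other 4. CCL, a clock-regulated gene, rose by 0.70 (adjusted p = 0.0389). AFR, an F-box gene of phytochrome A signalling, fell by 1.02 (adjusted p = 0.0347). Adding hyh also changed AFR, by -1.06 (adjusted p = 0.0409). The call of CCL ended without either gbf1 hy5 array, either wild type array or gbf1 replicate 2 (adjusted p up to 0.216), and that of AFR without any 1 of the gbf1 hy5 and gbf1 arrays (adjusted p up to 0.24). GI, the clock gene GIGANTEA, was at 0.17 against gbf1 (adjusted p = 0.807) and was lower in gbf1 hy5 than in gbf1 hyh by 1.5 (adjusted p = 0.0116).

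The called nuclear genes for antenna and photosystem proteins all had lower signals in gbf1 hy5. Of 8 measured antenna and photosystem genes, 4 fell and none rose, where 2.05% of all probe sets fell and 4.45% were called. Of the 8, 7 had a difference below 0, as had 47.9% of all probe sets, and their median was -0.68. LHCB4.2, which encodes the minor photosystem II antenna protein CP29, had -1.61 and -1.69 in gbf1 hy5, against 0.81 and 0.44 in gbf1. It fell by 2.28 (SE 0.181, adjusted p = 0.000257), 4.84-fold, and was also below the gbf1 hyh arrays, at -0.31 and -0.084 (difference -1.45, adjusted p = 0.00347), and wild type, at 0.084 and 0.39. No array of another genotype came near the gbf1 hy5 values, and the call held with any 1 array left out. When the 2 arrays with high spike-in values were omitted, 3 of the 8 genes fell. With gbf1 replicate 2 omitted there were 2, and with any of the gbf1 hy5 or wild type arrays omitted there was 1, LHCB4.2.

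The small photosystem II subunit gene PSBW had -0.58 and -0.84 in gbf1 hy5, against -0.0018 and 0.41 in gbf1, and fell by 0.92 (SE 0.202, adjusted p = 0.0377). PSBY, another small photosystem II subunit, fell by 0.86 (adjusted p = 0.0218), and PSAN, a photosystem I subunit on the lumen side, fell by 0.76 (adjusted p = 0.0407). For all 3 both gbf1 hy5 arrays were below the other 6 arrays. The other antenna genes of the CP29 family, LHCB4.3 at -0.59 and LHCB4.1 at -0.29, did not pass (adjusted p = 0.0843 and 0.328). Nor did the photosystem I gene PSAE-1, at -0.43 (adjusted p = 0.113), or the cyclic electron flow gene PGRL1B, at 0.20 (adjusted p = 0.707). Leaving out 1 array ended the calls of the small subunits for PSBW (either gbf1 hy5 or wild type array or gbf1 replicate 2), PSBY (either gbf1 hy5 or wild type array or gbf1 replicate 1) and PSAN (any gbf1 hy5, gbf1 or wild type array), at adjusted p up to 0.255, 0.171 and 0.235.

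A pair of thylakoid genes outside the list, picked after their values were seen, fell as well. TROL, which tethers ferredoxin-NADP reductase to the thylakoid membrane, had -0.72 and -0.60 in gbf1 hy5, against 0.35 and 0.23 in gbf1 (difference -0.94, SE 0.139, adjusted p = 0.0063). SPPA, a light-induced thylakoid protease, had -0.98 and -0.67, against 0.43 and 0.53 in gbf1 (difference -1.31, SE 0.181, adjusted p = 0.00472). The gbf1 hyh and wild type arrays lay between these values for both genes. The call of TROL ended without either gbf1 hy5 array (adjusted p up to 0.0772) and that of SPPA without gbf1 hy5 replicate 1 (adjusted p = 0.0604).

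Of 12 measured genes of chlorophyll and tetrapyrrole synthesis, 3 fell and none rose (25% called, against 4.45% of all probe sets). Their median was -0.17, with 9 values below 0. They act at different steps: HEME2 is a uroporphyrinogen decarboxylase, CHLI2 a subunit of magnesium chelatase and CHLM the methyltransferase that follows it. CHLI2 had -0.42 and -0.45 in gbf1 hy5, against 0.44 and 0.24 in gbf1, and fell by 0.78 (SE 0.18, adjusted p = 0.0455). CHLM fell by 0.76 (adjusted p = 0.0394) and HEME2 by 0.62 (adjusted p = 0.0372). The sizes are under 2-fold, and both gbf1 hy5 arrays were the lowest of the 8 in each, for CHLM and CHLI2 only narrowly. None of the 12 genes was called in gbf1 hy5 against wild type. There CHLI2, CHLM and HEME2 differed by -0.48, -0.27 and -0.32 (adjusted p = 0.3, 0.648 and 0.376). HEME1, the second uroporphyrinogen decarboxylase gene, differed by -0.50 (adjusted p = 0.195), while the aminolevulinate-forming enzyme gene GSA1 was at 0.45 (adjusted p = 0.269), HEMB1 at 0.41 and the protochlorophyllide oxidoreductase gene PORB at 0.18. None of the 3 calls held without any 1 of the gbf1 hy5, gbf1 or wild type arrays (adjusted p up to 0.274 for CHLM). Against gbf1 hyh 1 of the 12 genes differed, PORB, which was lower in gbf1 hy5 by 0.79 (adjusted p = 0.0446).

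**Figure D2:**
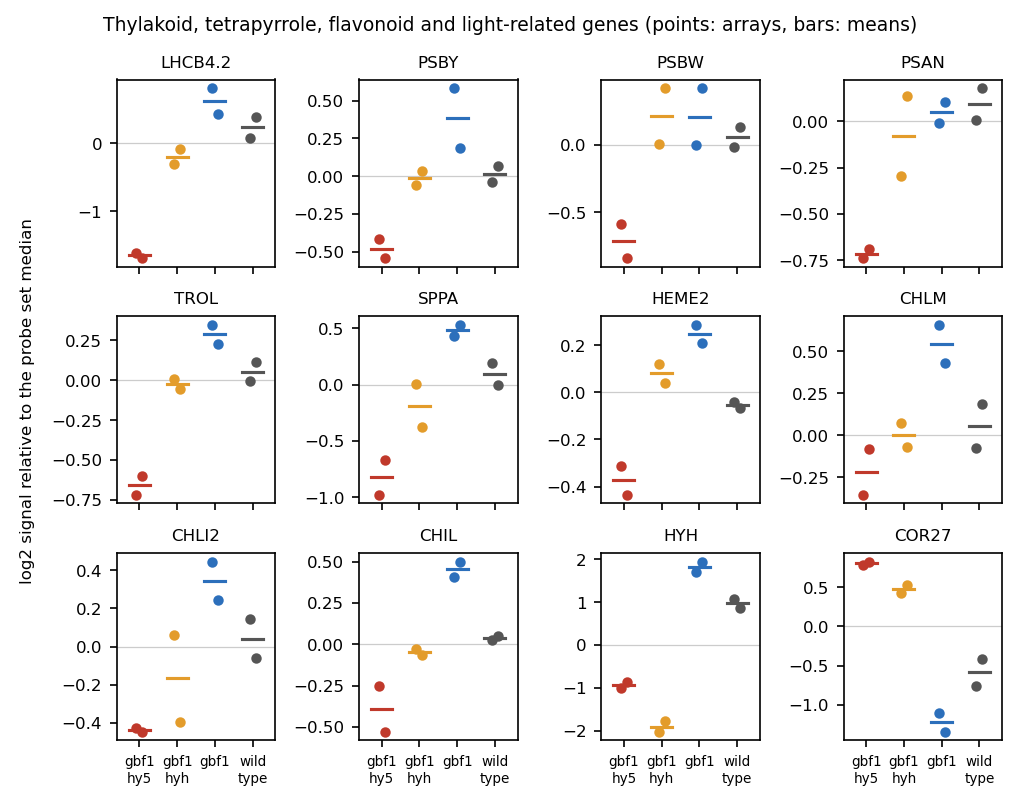
Log2 signal relative to the probe set median (vertical axis, with its own scale in each panel) on each array for 12 genes in gbf1 hy5, gbf1 hyh, gbf1 and wild type, with points for arrays and bars for means. For the thylakoid, tetrapyrrole and CHIL genes the gbf1 hy5 points lie below the gbf1 points, with gbf1 hyh and wild type mostly between, while COR27 is higher in gbf1 hy5 and HYH is lowest in gbf1 hyh.

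In the flavonoid and anthocyanin list 1 of 7 measured genes fell (14.3% called, against 4.45% of all probe sets). It was CHIL, a chalcone isomerase-like protein that aids early flavonoid synthesis. CHIL had -0.25 and -0.53 in gbf1 hy5, against 0.41 and 0.50 in gbf1 (difference -0.84, SE 0.147, adjusted p = 0.0137). Its call ended without gbf1 replicate 2 and without gbf1 hy5 replicate 2 (adjusted p up to 0.136). The median of the list was -0.15.

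Of 17 measured auxin genes, 2 fell and 1 rose (17.6% called, against 4.45% of all probe sets), with a median of -0.067. IAA29, an auxin-inducible transcriptional repressor, had -1.48 and -1.3 in gbf1 hy5, against -0.025 and 0.028 in gbf1, and fell by 1.39 (SE 0.185, adjusted p = 0.00381). Its gbf1 hyh values of 0.025 and -0.16 were like those of gbf1, and the direct difference of gbf1 hy5 from gbf1 hyh was -1.32 (adjusted p = 0.00646). GH3.17, which joins auxin to amino acids, fell by 0.65 (adjusted p = 0.0445), and its relative GH3.3 was at -0.90 (adjusted p = 0.0551). WAG2, a kinase gene that acts on auxin transport, rose, with 1.67 and 1.01 in gbf1 hy5, against -0.12 and -0.16 in gbf1 (difference 1.48, SE 0.234, adjusted p = 0.00872). The calls of IAA29 and WAG2 ended without gbf1 hy5 replicate 1 (adjusted p = 0.0532 and 0.0764), and that of GH3.17 with any 1 array left out (adjusted p up to 0.292).

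All 5 measured gibberellin genes had a difference above 0, with a median of 0.46, while 47.9% of all probe sets lay below 0. Of the 5, 1 rose (20% called, against 4.45% of all probe sets, where 2.4% rose). It was the receptor gene GID1A, which had 0.027 and 0.32 in gbf1 hy5, against -1.01 and -0.45 in gbf1 (difference 0.90, SE 0.204, adjusted p = 0.0416). The receptor genes GID1B and GID1C were both at 0.46 (adjusted p = 0.186 and 0.219), and the F-box genes SLY1 and SLY2, whose kind targets the pathway's repressors, were at 0.27 and 0.12. The gbf1 hyh arrays, at 0.41 and 0.44, read as high as gbf1 hy5 for GID1A. Its call held without gbf1 replicate 2 and ended without any other array (adjusted p up to 0.273).

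Further hormone genes were picked after their values had been seen. RR16, a response regulator that dampens cytokinin signalling, had 1.3 and 1.7 in gbf1 hy5, against -0.57 and -0.26 in gbf1, and rose by 1.92 (SE 0.233, adjusted p = 0.00262), 3.78-fold. It was also 2.1 higher than in gbf1 hyh (adjusted p = 0.00185), and its call held with any 1 array left out. The AP2-type factor gene tny (TINY) fell by 1.3 (SE 0.172, adjusted p = 0.0038), and BRH1, a brassinosteroid-responsive RING protein gene, by 0.67 (adjusted p = 0.0405). ETP2, an F-box gene of ethylene signalling, rose by 0.78 (adjusted p = 0.0227). The call of tny ended without gbf1 hy5 replicate 1 (adjusted p = 0.0532), that of ETP2 without either gbf1 hy5 or wild type array or gbf1 replicate 2 (up to 0.193), and that of BRH1 without any gbf1 hy5, gbf1 or wild type array (up to 0.228).

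Among 27 measured expansin and xyloglucan-modifying genes, which loosen or remodel the cell wall, 3 fell and 1 rose (14.8% called, against 4.45% of all probe sets), with a median of -0.17. EXPA18, an expansin of root hairs, had -0.30 and -0.34 in gbf1 hy5, against 1.37 and 1.41 in gbf1 and -0.50 and -0.68 in wild type. The gbf1 arrays were the high ones and gbf1 hy5 read close to wild type: EXPA18 fell by 1.71 against gbf1 (SE 0.161, adjusted p = 0.000659) and differed by 0.27 from wild type (adjusted p = 0.613). EXPA7, another root hair expansin, was also highest in gbf1. It had -0.11 and -0.11 in gbf1 hy5, 0.76 and 1.38 in gbf1 and -0.33 and 0.11 in wild type. Its difference from gbf1 was -1.18 (SE 0.235, adjusted p = 0.0246). The gbf1 hyh arrays read 0.30 and 0.66 for EXPA18, between gbf1 hy5 and gbf1. For EXPA7 they read -0.16 and 0.18, close to gbf1 hy5. Adding hyh changed EXPA18 by -0.91 (adjusted p = 0.0215) and EXPA7 by -1.06 (adjusted p = 0.055). EXPA18 and EXPA7 were the 2 called members of 4 measured root genes (50%, against 4.45% of all probe sets), whose median was -0.81. The other root genes were TRY, at -0.43, and PYK10, at -0.20. Whether gbf1 hy5 seedlings held fewer root hair cells or less of these transcripts per cell cannot be told apart in RNA of whole seedlings.

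XTH32, a xyloglucan-modifying enzyme gene, fell by 1.64 (SE 0.241, adjusted p = 0.0063). The expansin-like gene EXLB1 had 1.61 and 1.54 in gbf1 hy5, against -0.20 and -0.27 in gbf1, and rose by 1.81 (SE 0.189, adjusted p = 0.00115), with all 6 other arrays below both gbf1 hy5 arrays. It was 1.35 higher than in gbf1 hyh (adjusted p = 0.00653). The call of XTH32 ended without gbf1 hy5 replicate 1 (adjusted p = 0.0612), and that of EXPA7 without either gbf1 hy5 array or gbf1 replicate 2 (adjusted p up to 0.163).

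Of 47 other cell wall genes, 2 rose and 1 fell, against a background of 4.45% called over all probe sets. The calls include members of the GH9 family, endoglucanases that act on cellulose, in opposite directions. GH9B8 had 1.46 and 1.73 in gbf1 hy5, against 0.16 and 0.027 in gbf1, and rose by 1.51 (SE 0.162, adjusted p = 0.00132). GH9C1 had -0.88 and -0.57, against 1.34 and 0.93 in gbf1, and fell by 1.86 (SE 0.202, adjusted p = 0.0014), with wild type at -0.23 and -0.60. GH9B8 was thus highest in gbf1 hy5 alone among the 4 genotypes, while GH9C1 was highest in gbf1. Both differed from gbf1 hyh too, by 1.77 (adjusted p = 0.000708) and -1.05 (adjusted p = 0.0286). TBL38, of a family that acetylates wall polysaccharides, rose by 0.89 (adjusted p = 0.0376), a call that ended without any gbf1 hy5, gbf1 or wild type array (adjusted p up to 0.269).

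**Figure D3:**
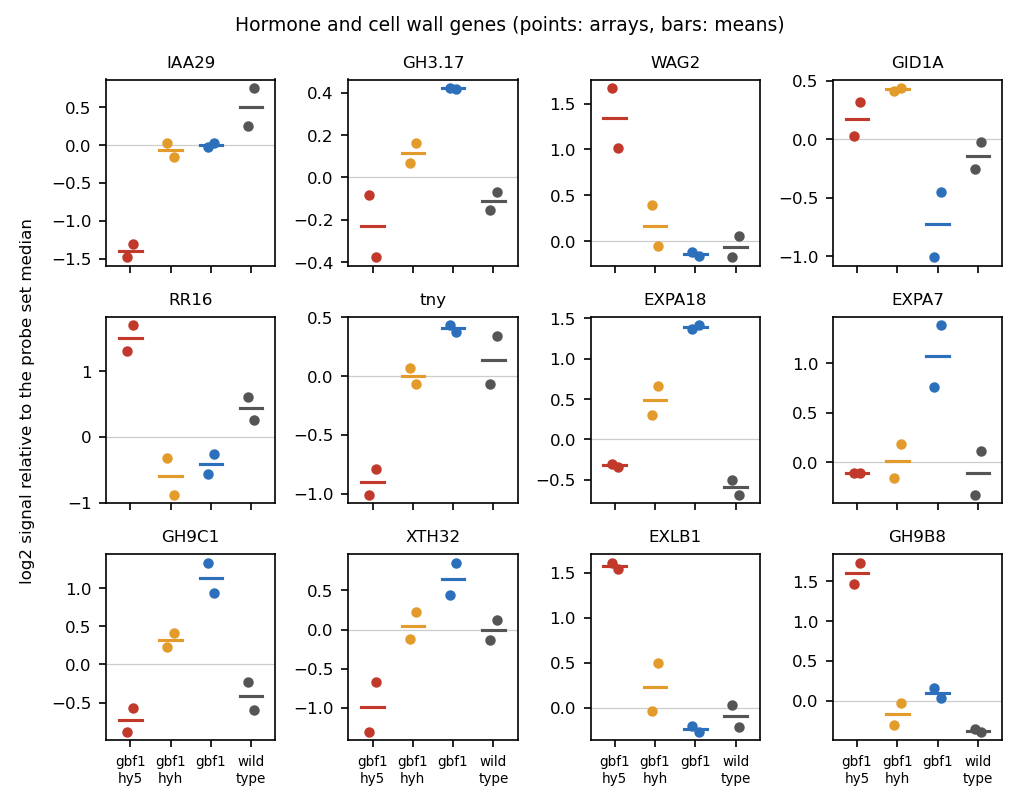
Log2 signal relative to the probe set median (vertical axis, with its own scale in each panel) on each array for 12 hormone and cell wall genes in gbf1 hy5, gbf1 hyh, gbf1 and wild type, with points for arrays and bars for means. IAA29 and tny are low and WAG2, RR16, EXLB1 and GH9B8 are high on the gbf1 hy5 arrays alone, whereas EXPA18, EXPA7 and GH9C1 are high on the gbf1 arrays.

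BCAT4, which starts the elongation of methionine for aliphatic glucosinolates, was the 1 called gene of 6 measured in that pathway (16.7%, against 4.45% of all probe sets). It had 1.47 and 1.65 in gbf1 hy5, against -0.93 and -0.69 in gbf1, -1.38 and -2.05 in gbf1 hyh and 0.80 and 0.69 in wild type. BCAT4 rose by 2.37 (SE 0.216, adjusted p = 0.000596), 5.18-fold, and the gap to gbf1 hyh was wider, at 3.28 (adjusted p = 9.63e-05). None of the 6 genes, BCAT4 included, was called in gbf1 hy5 against wild type. UGT74B1, which adds glucose in the glucosinolate core pathway, was at 0.94 (adjusted p = 0.0697), and exceeded gbf1 hyh by 1.28 (adjusted p = 0.0285).

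GSTU20, a glutathione S-transferase gene, had the genotypes in the same order as BCAT4. It had 2.05 and 2.05 in gbf1 hy5, against -0.37 and -0.70 in gbf1, -0.49 and -1.17 in gbf1 hyh and 0.37 and 0.67 in wild type. It rose by 2.58 (SE 0.229, adjusted p = 0.00049), 6-fold, and stood 2.88 above gbf1 hyh (adjusted p = 0.000319). In the detoxification and redox list of 17 measured genes, 17.6% were called, against 4.45% of all probe sets, and the median was -0.065. There GSTU20 and the glutaredoxin gene GRXC2 (0.77, adjusted p = 0.0227) rose and GSTU28 fell by 0.87 (adjusted p = 0.0373). GR1, a glutathione reductase gene seen to be called outside the list, fell by 1.17 (SE 0.162, adjusted p = 0.00472). The calls of BCAT4 and GSTU20 held with any 1 array left out, whereas that of GR1 ended without gbf1 hy5 replicate 2 (adjusted p = 0.0595), GRXC2 without either gbf1 hy5 or wild type array or gbf1 replicate 2 (up to 0.185) and GSTU28 without either gbf1 hy5 or wild type array or gbf1 replicate 1 (up to 0.247).

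Of 22 measured sugar transport and starch genes, 1 rose and 1 fell (9.09% called, against 4.45% of all probe sets). SWEET2, a vacuolar sugar transporter gene, had -0.43 and -0.044 in gbf1 hy5, against 1.46 and 1.3 in gbf1 (difference -1.62, SE 0.215, adjusted p = 0.00381). It was also low in gbf1 hyh, at -0.66 and -0.77, and adding hyh changed it by -2.09 (adjusted p = 0.00136). Against wild type SWEET2 differed by -0.58 in gbf1 hy5 (adjusted p = 0.292) and by 1.04 in gbf1 (adjusted p = 0.104). TMT1, a tonoplast monosaccharide transporter gene, rose in gbf1 hy5 by 0.93 (adjusted p = 0.0197). Seen after the values were known, the sucrose-phosphate synthase gene ATSPS4F rose by 1.43 (adjusted p = 0.0176) and the starch branching enzyme gene SBE2.2 fell by 0.83 (adjusted p = 0.035). Also picked after their values were seen were 6 genes of amino acid and one-carbon metabolism and of vitamin synthesis. THIC, which makes the pyrimidine part of thiamine, had 0.61 and 0.98 in gbf1 hy5, against -1.2 and -0.78 in gbf1, and rose by 1.78 (SE 0.195, adjusted p = 0.00143). MGL, which breaks down methionine, rose by 1.36 (SE 0.159, adjusted p = 0.00214), DELTA-OAT, the ornithine aminotransferase, by 0.91 (adjusted p = 0.0177), and FDH, formate dehydrogenase, by 0.99 (adjusted p = 0.00784). MCCA, of leucine breakdown, fell by 1.01 and the cyanase gene CYN by 1.46 (adjusted p = 0.00839 and 0.00686). Adding hyh also changed CYN, by -1.31 (adjusted p = 0.0175). The calls of THIC and MGL held with any 1 array left out. Those of SWEET2, CYN and MCCA ended without gbf1 hy5 replicate 1 (adjusted p = 0.0519, 0.082 and 0.0955), and the others without either gbf1 hy5 array. TMT1 also lost its call without either gbf1 array (adjusted p up to 0.178), ATSPS4F without gbf1 replicate 2 (up to 0.161), DELTA-OAT without gbf1 replicate 1 (up to 0.161) and SBE2.2 without gbf1 replicate 1 or either wild type array (up to 0.218), while FDH reached 0.0799.

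Of 29 measured serine carboxypeptidase-like genes, 3 rose and none fell (10.3% called, against 4.45% of all probe sets, of which 2.4% rose), with a median of 0.096. SCPL49 had 0.55 and 0.80 in gbf1 hy5, against -0.63 and -0.71 in gbf1 (difference 1.35, SE 0.151, adjusted p = 0.00158). For scpl35 the values were 1.34 and 1.1 in gbf1 hy5, against -0.17 and 0.22 in gbf1 (difference 1.19, SE 0.173, adjusted p = 0.00582), and scpl35 alone of the 3 also exceeded gbf1 hyh, by 1.22 (adjusted p = 0.00686). SCPL34 rose by 0.66 (adjusted p = 0.0404). After the values were seen, the subtilase gene ATSBT5.2 was added, with 1.4 and 1.51 in gbf1 hy5, against -0.61 and -0.18 in gbf1 (difference 1.85, SE 0.228, adjusted p = 0.00274), as was the chloroplast aspartic protease gene NANA (1.01, adjusted p = 0.0107). The calls of scpl35 (without gbf1 hy5 replicate 1, adjusted p = 0.0752), NANA (without either gbf1 hy5 array, up to 0.104) and SCPL34 (without either gbf1 hy5 or wild type array or gbf1 replicate 2, up to 0.25) ended with 1 array left out.

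The called UDP-glycosyltransferase and beta-glucosidase genes split both ways. Of 67 measured UDP-glycosyltransferase and beta-glucosidase genes, 2 rose and 2 fell: the sterol glucosyltransferase gene UGT80B1 by 1.18 (adjusted p = 0.0333) and BGLU40 by 0.84 (adjusted p = 0.0343) upward, and UGT88A1 by -0.99 (adjusted p = 0.0252) and BGLU15 by -0.62 (adjusted p = 0.0411) downward. The share called, 5.97%, is near the 4.45% of all probe sets, and 3.55% of those tied to 1 gene were called. Both beta-glucosidase genes differed from gbf1 hyh, BGLU40 by 1.24 (adjusted p = 0.00728) and BGLU15 by -1.01 (adjusted p = 0.00628). Of 24 measured cytochrome P450 genes 2 fell (8.33% called, against 4.45% of all probe sets), CYP718 by 1.41 (SE 0.197, adjusted p = 0.00482) and CYP71B26 by 1.41 (SE 0.184, adjusted p = 0.00363). CYP718 was highest in gbf1, at 0.91 and 1.29, against -0.031 and -0.022 in wild type. Its difference of gbf1 hy5 from wild type was -0.29 (adjusted p = 0.697). Adding hyh also changed CYP718, by -0.94 (adjusted p = 0.0441). CYP71B26 was low in both double mutants, with -0.89 and -0.68 in gbf1 hy5 and -0.77 and -0.43 in gbf1 hyh, against 0.43 and 0.81 in gbf1 and 1.45 and 1.41 in wild type. The call of CYP718 ended without gbf1 hy5 replicate 2 (adjusted p = 0.0608) and that of CYP71B26 without gbf1 hy5 replicate 1 (adjusted p = 0.0517). The other 4 ended without either gbf1 hy5 array, UGT88A1 also without gbf1 replicate 1 (up to 0.195), UGT80B1 without gbf1 replicate 2 or either wild type array (up to 0.241), and BGLU40 and BGLU15 without any gbf1 or wild type array (up to 0.235 and 0.255).

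LTI30, a dehydrin gene induced by cold and abscisic acid, had -1.67 and -0.89 in gbf1 hy5, against 0.71 and 0.44 in gbf1, and fell by 1.86 (SE 0.235, adjusted p = 0.00314), with any 1 array left out as well. It was the 1 called gene of 6 measured for abscisic acid and cold (16.7%, against 4.45% of all probe sets). That list had 4 members above 0, among them COR15B at 1.11 (adjusted p = 0.109), COR47 at 0.47 and COR15A at 0.37. LEA4-5 was at -0.94 (adjusted p = 0.146). Of 9 measured defence genes, 22.2% were called, against 4.45% of all probe sets. The defensin gene PDF1.4 fell by 1.02 (adjusted p = 0.00874) and the transcription factor gene WRKY22 by 0.66 (adjusted p = 0.0412). Seen later, the RALF-type peptide genes RALFL27 and RALFL24 fell by 1.3 and 0.88 (adjusted p = 0.0164 and 0.0353). Adding hyh also changed RALFL24, by -1.03 (adjusted p = 0.0255). The defensin-like gene LCR69 rose in gbf1 hy5 by 1.1 (adjusted p = 0.00987). All 5 of these calls ended without either gbf1 hy5 array, that of WRKY22 also without either wild type array or gbf1 replicate 1, that of RALFL27 without gbf1 replicate 2 and that of RALFL24 without either gbf1 array (adjusted p up to 0.1 for PDF1.4, 0.245 for WRKY22, 0.14 for RALFL27, 0.228 for RALFL24 and 0.101 for LCR69).

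HTB2, a histone H2B gene, was the 1 called member of 5 measured cell division genes (20%, against 4.45% of all probe sets). It had 1.01 and 1.29 in gbf1 hy5, against 0.023 and -0.36 in gbf1 (difference 1.32, SE 0.192, adjusted p = 0.00607). It exceeded gbf1 hyh by 1.59 (adjusted p = 0.00292). The related genes HTB1 and HTB4 were at 0.41 and 0.51 without passing. HTB11, also an H2B gene, was at -2.01 (adjusted p = 0.0627), with -0.73 and -0.67 in gbf1 hy5, against 2.33 and 0.28 in gbf1: the gbf1 replicates lay far apart. Added after their values were seen, AGO7, the argonaute of trans-acting small RNAs, rose by 0.98 (SE 0.173, adjusted p = 0.014), NRPA1, the largest subunit of RNA polymerase I, by 1.24 (SE 0.228, adjusted p = 0.0176), the primase gene POLA3 by 0.77 (adjusted p = 0.0317) and the polymerase V subunit gene NRPE7 by 0.72 (adjusted p = 0.0472). Cytoskeletal genes were likewise added. The tubulin genes TUB9 (1.03, adjusted p = 0.00472) and TUA6 (0.78, adjusted p = 0.0454) and the actin-binding gene WLIM2a (0.77, adjusted p = 0.0123) rose. The actin gene ACT11 (-0.63, adjusted p = 0.0455) and the microtubule-associated gene SP1L4 (-1.15, adjusted p = 0.00982) fell. Adding hyh also changed ACT11 by -0.88 and SP1L4 by -1.08 (adjusted p = 0.0161 and 0.0198). Against wild type gbf1 hy5 differed by -0.18 for ACT11 and -0.093 for SP1L4 (adjusted p = 0.795 and 0.971). The gbf1 means lay above wild type by 0.45 and 1.06 (adjusted p = 0.354 and 0.06). The calls of HTB2 and TUB9 ended without gbf1 hy5 replicate 2 (adjusted p = 0.077 and 0.064), and the others without either gbf1 hy5 array. AGO7, NRPA1, WLIM2a, POLA3, NRPE7, ACT11 and TUA6 also lost theirs without gbf1 replicate 2, POLA3, NRPE7, ACT11 and TUA6 without either wild type array, NRPE7, ACT11 and TUA6 without gbf1 replicate 1, and TUA6 without either gbf1 hyh array. Their highest adjusted p was 0.111 for SP1L4, 0.112 for WLIM2a, 0.137 for AGO7, 0.142 for NRPA1, 0.191 for POLA3, 0.252 for NRPE7, 0.27 for ACT11 and 0.287 for TUA6.

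The largest fall was that of JAL33 (AT3G16450), a jacalin-type lectin gene, which had -2.4 and -2.57 in gbf1 hy5, against 2.96 and 3.35 in gbf1, -3.18 and -2.15 in gbf1 hyh and 2.15 and 2.69 in wild type. Both double mutants were low and the groups did not overlap: JAL33 fell by 5.64 against gbf1 (SE 0.318, adjusted p = 3.84e-05), 49.9-fold, and its difference from gbf1 hyh was 0.18 (adjusted p = 0.876). The other 3 measured lectin genes of the family did not pass, with JAL22 at 0.50 (adjusted p = 0.198). AT3G47250 was laid out in the same way, at -2.12 and -1.87 in gbf1 hy5 and -1.98 and -2.17 in gbf1 hyh, against 2.98 and 1.87 in gbf1 (difference -4.42, SE 0.311, adjusted p = 0.000115).

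AT2G15560 gave the largest rise, with 2.84 and 2.65 in gbf1 hy5, against -1.99 and -2.19 in gbf1, 1.64 and 1.83 in gbf1 hyh and -1.81 and -1.64 in wild type. It rose by 4.84 (SE 0.157, adjusted p = 3.46e-06), 28.6-fold, and exceeded gbf1 hyh by 1.01 (adjusted p = 0.011). AT3G28320 rose by 4.46 (SE 0.23, adjusted p = 3.18e-05), with 1.89 and 2.28 in gbf1 hy5 and 2.45 and 2.3 in gbf1 hyh, against -2.33 and -2.42 in gbf1. AT1G50290 (3.55) and AT3G05150 (2.72) were also high in both double mutants, and neither differed from gbf1 hyh (adjusted p = 0.682 and 0.269).

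AT5G26270 was low in gbf1 hy5 alone. It had -3.37 and -3.43 in gbf1 hy5, against 0.20 and 0.36 in gbf1, 1.29 and 1.67 in gbf1 hyh and -0.32 and -0.20 in wild type. With hy5 added it fell by 3.68 (SE 0.166, adjusted p = 1.81e-05), while adding hyh raised it by 1.2 (adjusted p = 0.00674), and the direct difference between the double mutants was -4.88 (adjusted p = 2.27e-06). AT2G19970 (-3.3 against gbf1, -1.6 against gbf1 hyh), which adding hyh also changed by -1.7 (adjusted p = 0.000651), and AT2G04800 (-2.83 and -2.3) were also lower in gbf1 hy5 than in both other mutants. AT5G20740 (2.16 and 1.59) was higher in gbf1 hy5 than in both.

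The other falls among the 10 largest were AT3G44970 (-3.01), AT3G43740 (-2.92), AT3G22570 (-2.8) and AT3G44630 (-2.76), none of which was called against gbf1 hyh in the direct test. AT3G22570 was intermediate in gbf1 hyh, -1.08 lower in gbf1 hy5 than there (adjusted p = 0.1). The other rises among the 10 largest were AT3G16670 (2.71), AT3G29410 (2.43) and AT4G17470 (2.4), likewise without a call against gbf1 hyh. AT3G16670 read 0.35 and 1.86 in gbf1 hy5, against -1.58 and -1.65 in gbf1, so its replicates spread widely within gbf1 hy5. Of the 20 largest changes, the call of AT3G29410 alone ended with 1 array left out, without either gbf1 hy5 array (adjusted p up to 0.0788). These loci carry no symbol in the probe table.

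**Figure D4:**
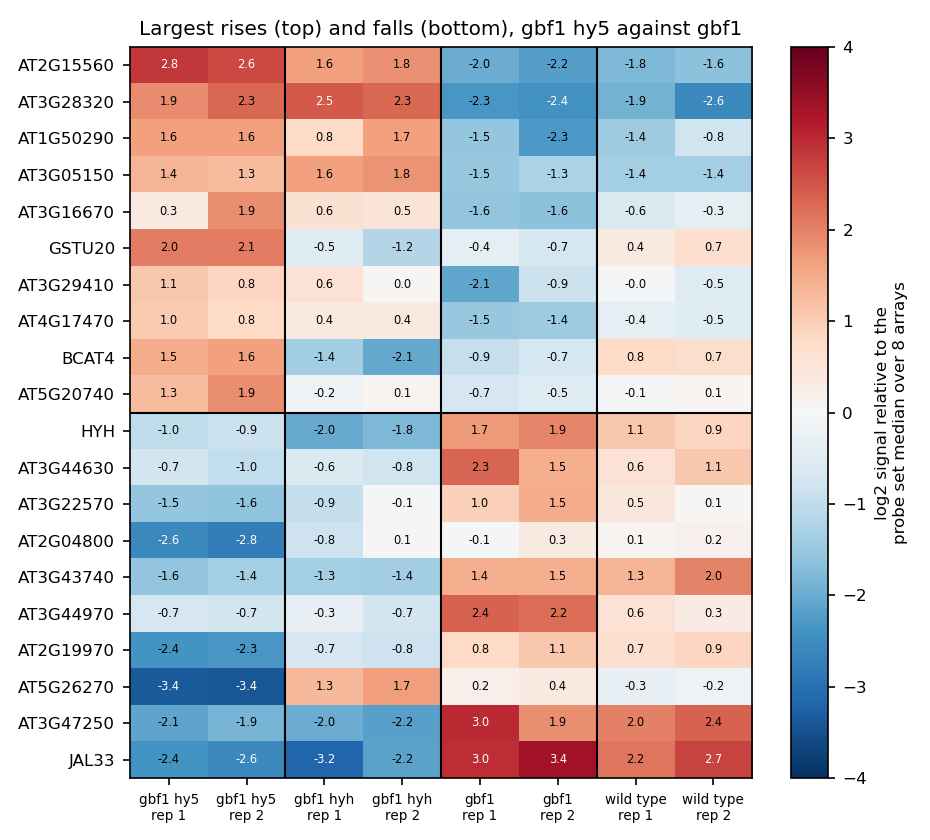
Log2 signal relative to the probe set median (colour and printed value) on each of the 8 arrays, in columns ordered gbf1 hy5, gbf1 hyh, gbf1 and wild type, for the 10 largest rises (upper rows) and the 10 largest falls (lower rows) of gbf1 hy5 against gbf1. JAL33, AT3G47250 and AT3G43740 are low in both double mutants, whereas AT5G26270 is lowest and GSTU20 and BCAT4 are highest in gbf1 hy5.

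Of the 20 loci in that plot, JAL33, HYH and 10 more carry chromosome 3 locus numbers. Chromosome 3 held 2746 of the 13436 probe sets tied to 1 gene and matched to a RefSeq gene. Over the probe sets tied to 1 gene, 4.59% of those on chromosome 3 were called in gbf1 hy5 against gbf1, against 3.27% on chromosome 1, 3.86% on chromosome 2, 2.7% on chromosome 4 and 3.19% on chromosome 5. Adding hyh to gbf1 changed 571 probe sets (2.51%), 354 of them (1.56%) at least 2-fold, and gave 2.99% on chromosome 3 and between 1.3% and 2.55% on the other nuclear chromosomes. In the direct test of gbf1 hy5 against gbf1 hyh, chromosome 3 had the lowest share of the nuclear chromosomes, at 1.17%. These shares are descriptions, and both contrasts with gbf1 use the same gbf1 arrays. Among the 100 genes on either side of HY5 on chromosome 5, 6 of 102 probe sets (5.88%) were called, including the RING-type ubiquitin ligase gene RING1, which rose by 1.13 (adjusted p = 0.0292). That call ended without either gbf1 hy5 or wild type array or gbf1 replicate 1 (adjusted p up to 0.228).

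The direct comparison of gbf1 hy5 with gbf1 hyh sets loss of HY5 beside loss of HYH in a gbf1 background, and the gbf1 arrays do not enter the difference. It called 631 probe sets (2.77%), 400 higher (1.76%) and 231 lower (1.02%) in gbf1 hy5, and 381 of them (1.68%) differed at least 2-fold. Against wild type gbf1 hy5 differed in 495 probe sets (2.18%), 242 higher (1.06%) and 253 lower (1.11%). Of the 94 genes with a symbol and 1 probe set that were called against gbf1, 26 also differed from gbf1 hyh. They include, beside those named above, the pectin methylesterase gene ATPMEPCRD (1.45 against gbf1 hyh, adjusted p = 0.0176), the tetraspanin gene TET2 (1.27, adjusted p = 0.0109) and ATC, a relative of the flowering repressor TFL1 (1.28, adjusted p = 0.0166). Against gbf1 these rose by 1.19, 1.37 and 1.06. All 3 calls against gbf1 ended without gbf1 hy5 replicate 1, those of ATPMEPCRD and ATC also without gbf1 hy5 replicate 2, gbf1 replicate 2 or either wild type array, and that of ATPMEPCRD without gbf1 replicate 1 too (adjusted p up to 0.193 and 0.185, and 0.0717 for TET2). The 631 calls became 175 and 162 without gbf1 hy5 replicate 1 and 2, 299 without gbf1 hyh replicate 2 and 380 without either wild type array. The 495 calls became 148 and 111 without gbf1 hy5 replicate 1 and 2, and 146 and 88 without wild type replicate 1 and 2.

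Plastid-encoded genes had mostly lower signals in gbf1 hy5, with few calls. Of 69 measured, 5 fell and none rose (7.25% called, against 4.45% of all probe sets). The difference was below 0 for 63, as it was for 47.9% of all probe sets, and the median was -0.50. The ribosomal protein gene rps16 had -0.99 and -0.64 in gbf1 hy5, against 0.62 and 1.15 in gbf1, and fell by 1.7 (SE 0.347, adjusted p = 0.0281). The others were rps3 (-0.93), the polymerase subunit gene rpoC1 (-0.83), the photosystem I assembly gene ycf3 (-0.92) and the cytochrome f gene petA (-0.80), and none of the 69 differed from gbf1 hyh. The median moved to -0.16 without gbf1 replicate 2, with none called, and to -0.71 with 13 called without gbf1 replicate 1, with none called without gbf1 hy5 replicate 1, 1 without gbf1 hy5 replicate 2 and 3 without either wild type array. With the mean spike-in signal of each array as a covariate 14 fell and the median was -0.38, with the 2 arrays of high spike-in values omitted 3 fell, 1 rose and the median was -0.16, and with the replicate number as a block 11 fell.

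In 9 lists with measured members no gene passed. The 2 members with the lowest adjusted p of each, or the only one, were RCA (-0.32) and PRK (-0.19) in carbon fixation, EIN3 (-0.27) and MYC3 (0.22) in ethylene and jasmonate signalling, and LYC (-0.37) and Z-ISO (-0.036) in carotenoid synthesis. They were APS3 (0.75) and NRT2.5 (-0.18) in nitrogen, sulfur and phosphate use, OLEO3 (0.43) and PAP85 (-0.11) among seed markers, GI (0.17) in the clock, BRL1 (-0.049) in brassinosteroid, ARR15 (0.053) in cytokinin and Hsp70-2 (0.64) in protein folding. Their adjusted p-values lay at or above 0.148, the value for OLEO3. Hsp70-2 was higher than in gbf1 hyh by 1.04 (adjusted p = 0.0404). Most lists had few measured members. The probe table ties 8730 probe sets to no gene, and 507 of these (5.81%) were called. Of the 13513 probe sets tied to 1 gene, 480 (3.55%) were called.

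**Figure D5:**
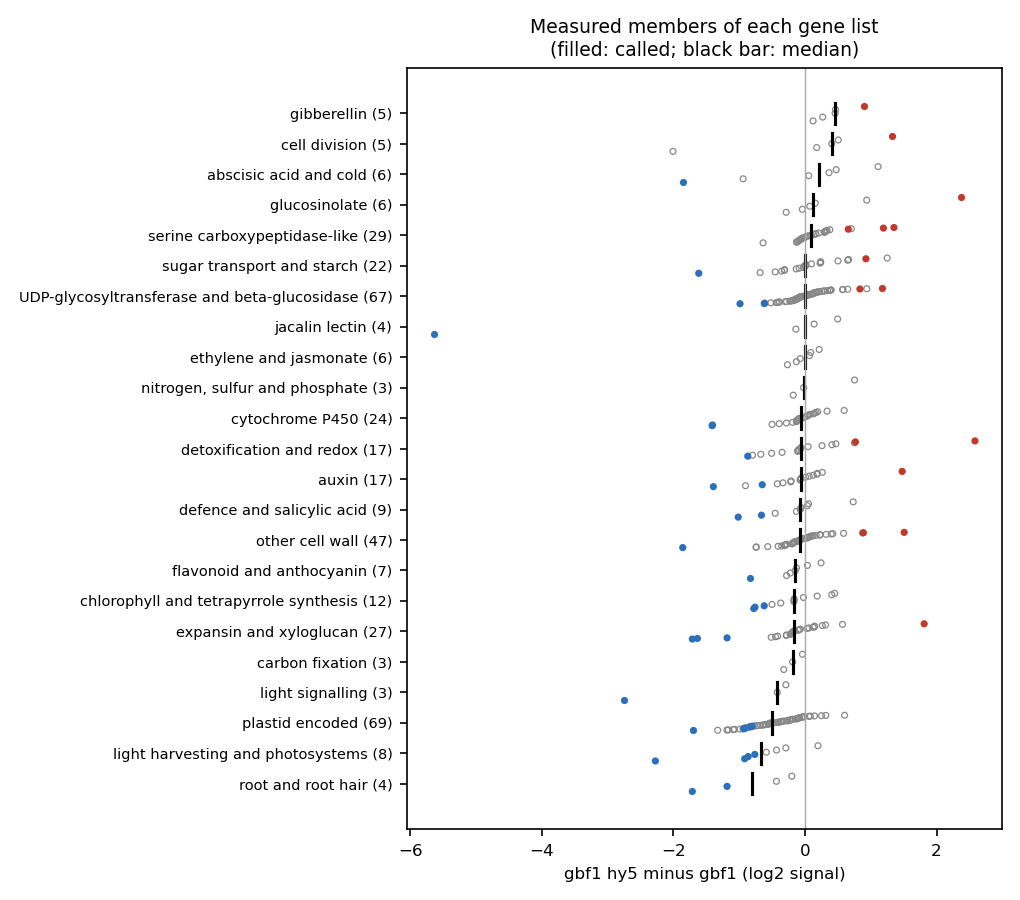
Log2 difference of gbf1 hy5 minus gbf1 (horizontal axis) for every measured member of the lists with at least 3 measured genes (rows, with the number measured in brackets), filled red or blue where called higher or lower and open where not called, with a black bar at each list's median. The medians run from 0.46 for gibberellin genes to -0.81 for root genes.

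The largest changes among probe sets without a gene were of similar size to those above. The one that fell most had -3.53 and -3.61 in gbf1 hy5, against 0.33 and 0.79 in gbf1 (difference -4.13, adjusted p = 1.81e-05), and the next fell by 4.02 (adjusted p = 4.95e-05), with gbf1 hyh equally low, at -1.79 and -1.61. The one that rose most had 1.88 and 2.48 in gbf1 hy5, against -1.38 and -0.94 in gbf1 (difference 3.34, adjusted p = 0.000978), and the next rose by 3.24 (adjusted p = 0.000341). Both of these were low in gbf1 hyh, and the direct differences from it were 4.05 and 3.67 (adjusted p = 0.000391 and 0.000197).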

How the data were processed

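The deposited values were log2 signals from 3' expression arrays; the authors made them with RMA in GeneSpring, per the labels' design text, and base 2 is taken from the usual output of RMA. Each probe set is centred on its own median over the 8 arrays, as tested on the file, so dim probe sets could not be filtered out. A limma 3.58.1 fit in R 4.3.3 of 4 genotype means over all 8 arrays gave the differences, with Benjamini-Hochberg adjustment over 22746 probe sets and calls at adjusted p under 0.05. The procedure was tested on simulated data. With 2 arrays a group, their number limits the precision. Genes came from the platform's probe table, which ties 13513 probe sets to 1 gene, 503 to several and 8730 to none, with symbols and chromosomes from RefSeq genes of TAIR10.1.

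The members and gene lists were chosen with earlier results of these data known. Named genes were the mutated genes with a probe set, the 10 largest rises and falls, up to 4 called genes in each direction per list with the lowest adjusted p, and, for a list with no call, 2 members as values. Other named genes were chosen after their values were seen. Alternatives were a fit of the 2 genotypes alone, a replicate block, other normalization, a robust prior, array weights, the spike-in signal and omitted arrays.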

Additional observations from a re-analysis of the deposited data

Results flagged for a closer look

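The hybridisation spike-in control probe sets, which stand outside the tested probe sets, averaged 1.499 on gbf1 hyh replicate 2 and 1.79 on gbf1 replicate 2 (log2 relative to the probe set medians). Both values lie above those of the wild type arrays, which were -0.186 and 0.268. Labelled RNA of this kind is added to each hybridisation in the laboratory.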

How the results depend on the processing

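No called probe set of gbf1 hy5 against gbf1 changed sign under any alternative. Such a change was not possible in fits that leave the difference of the 2 means as it was. These were the 2 genotypes alone, the replicate block, the robust prior, array weights and omission of a wild type or gbf1 hyh array. Omitting 1 gbf1 hy5 or gbf1 array cannot reverse a difference either where the arrays of the 2 genotypes lie apart. Of 114 called probe sets that were followed, 70 kept their call in all 8 alternatives that omit no single array. Fewer did so with each of the 8 arrays left out in turn. The 114 include the largest changes and some probe sets tied to no gene. With the arrays of the 2 genotypes alone there were 566 calls (273 higher, 293 lower) for gbf1 hy5 against gbf1, 376 (237, 139) against gbf1 hyh and 1126 (593, 533) against wild type. With the spike-in signal as a covariate there were 1689 (944, 745), 1102 (670, 432) and 936 (491, 445). Calls that were also at least 2-fold numbered 519 (240, 279), 381 (240, 141) and 319 (145, 174). Against wild type, quantile normalization gave 788 calls (345, 443), array weights 1320 (715, 605) and omission of both arrays of high spike-in signal 1126 (593, 533). With 1 array left out, calls ranged from 241 to 1276 (92 to 785 higher, 149 to 504 lower) against gbf1, from 162 to 794 (106 to 498, 56 to 296) against gbf1 hyh and from 88 to 609 (37 to 305, 51 to 304) against wild type. The replicate block gave 1224, 736 and 544 calls. Nothing in the labels says that a number marks a shared batch, and deviations of same-numbered arrays correlated between -0.113 and 0.336 over the 6 pairs of genotypes (-0.0244 for gbf1 hy5 and gbf1). In all 4 genotypes the replicate 2 array had the higher poly-A and hybridisation spike-in means and the lower actin 3' minus 5' value. Among the uncalled genes named in the text, a set settled after the values had been seen, some differences from gbf1 changed sign. Omitting gbf1 replicate 2, alone or with gbf1 hyh replicate 2, gave 0.021 for PAP85, 0.044 for BRL1, -0.085 for GI, -0.11 for PGRL1B and -0.0097 for SLY1. Omitting gbf1 hy5 replicate 2 gave 0.022 for BRL1, and omitting gbf1 hy5 replicate 1 gave 0.065 for Z-ISO and -0.095 for ARR15. With 1 array left out, the other ends of their ranges were -0.24 for PAP85, -0.14 for BRL1, 0.43 for GI, 0.50 for PGRL1B, 0.55 for SLY1, -0.14 for Z-ISO and 0.20 for ARR15. The causes were not tested.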
